A study of Mus musculus with 2 samples.

Results

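The genes described here are the semaphorins, plexins, neuropilins, SLITs, ROBOs and netrins, ligands and receptors that steer growing axons and vessels, as measured in the neonatal mouse heart. They were taken by symbol from the annotated genes with at least 1 transcript of the class protein_coding. This gave 42 genes of 21901: 20 semaphorins, 9 plexins, 2 neuropilins, 3 SLITs, 4 ROBOs and 4 netrins. A further 3 symbols, the antisense genes Plxna4os1, Plxna4os2 and Plxna4os3, matched the name pattern but have no such transcript and were left out.

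Total RNA was sequenced from the hearts of female B6CASTF1/J mice, the F1 cross of C57BL/6J and CAST/EiJ, at 4 days of age, with no treatment or further allele named in the labels. The single group holds 2 libraries, called replicate 1 and replicate 2, each made from 300 ng of RNA as a stranded library depleted of ribosomal RNA, with ERCC spike-in RNAs added. The labels give separate biological replicate numbers but one donor identifier, so that the hearts are separate animals rests on those numbers, and the spread between the libraries may be technical in part. With 1 group there is no contrast between conditions, and with 2 libraries no p-value was computed.

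Semaphorins carry a sema domain and signal through plexins, which act on small GTPases inside the cell. The secreted class 3 semaphorins mostly need a neuropilin as a coreceptor, while the membrane-bound classes bind plexins directly. Secreted SLIT proteins bind ROBO receptors, and netrins bind the DCC, neogenin and UNC5 receptors. In the heart these families are known for vessel growth, septation of the outflow tract, and the laying out of sympathetic nerves.

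The libraries held 36175363 expected counts (estimated reads per gene) in replicate 1 and 32509660 in replicate 2, of which the 42 genes took 0.206% and 0.212%. Levels are given in TPM, a transcript abundance which is corrected for length and so can be compared between genes. Cardiomyocyte markers were high, with all 7 expressed and a summed TPM of 13865 in replicate 1 and 13702 in replicate 2, and all 7 endothelial markers were expressed, with sums of 497 and 506. None of the 8 neuronal markers reached 1 TPM in both libraries, their sum being 3.31 and 2.55. The hearts stood apart in markers of blood and skeletal muscle: 6 erythroid markers summed to 16453 TPM in replicate 1 and 209.9 in replicate 2. The 7 skeletal muscle markers summed to 302 and 131, but Acta1 alone held 263 and 125 of this, so these sums mostly follow 1 gene. Of the 7, the 6 that passed the filter for a comparison between the hearts were all at least 2-fold higher in replicate 1. In bulk tissue, fewer cells of a type and less RNA per cell cannot be told apart.

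A gene was counted as expressed when both hearts reached 1 TPM. By that rule 32 of the 42 genes (76.2%) were expressed, against 54.5% of all genes with a protein_coding transcript. The median over the expressed guidance genes was 12.1 TPM, close to the 12.6 TPM of all expressed coding genes. The highest were mostly receptors: Plxnd1, Nrp1, Plxnb2 and Ntn1 were the 4 members above 27.9 TPM, the upper quartile of expressed coding genes, and 3 of these encode receptors or coreceptors. Summed by family, plexins held 218 ± 3.82 TPM (SD, n = 2), semaphorins 155 ± 3.94, neuropilins 95.5 ± 6.99, netrins 61.5 ± 6.17, ROBOs 23.4 ± 2.71 and SLITs 20.2 ± 3.16.

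**Figure D1:**
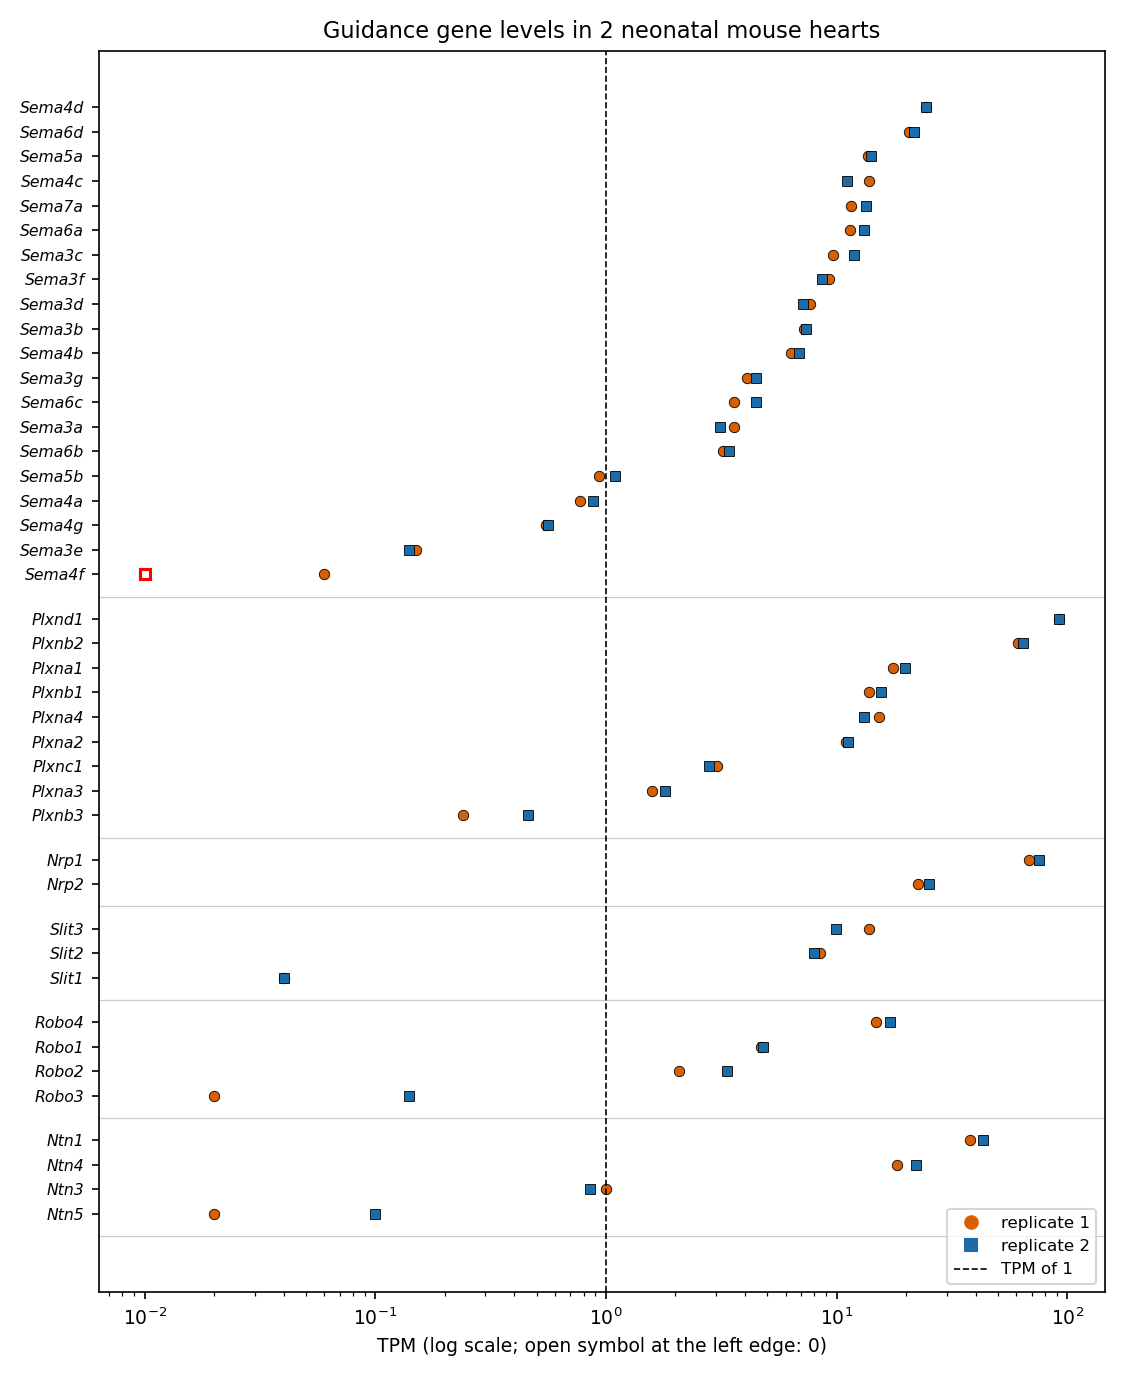
Level of each of the 42 guidance genes in TPM (horizontal, log scale) in replicate 1 (circles) and replicate 2 (squares), grouped by family and ordered by mean level, with dashes at a TPM of 1. The 32 expressed genes lie at or right of the line in both hearts, the 2 highest being Plxnd1 and Nrp1, and the open square is the TPM of 0 of Sema4f in replicate 2.

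Among the neuropilins, Nrp1, the coreceptor of Sema3a and of vascular endothelial growth factor (ENSMUSG00000025810.9, mm10 chromosome 8, 128358604 to 128503363, plus strand), had 68.0 TPM in replicate 1 and 75.3 in replicate 2. Nrp2, the coreceptor of Sema3f and of a lymphatic growth factor (chromosome 1, 62703285 to 62818695, plus strand), had 22.6 and 25.2 TPM. Nrp1 exceeded Nrp2 in each heart, by log2 ratios of 1.59 and 1.58, which is 3.00-fold on average. To set such a ratio against the spread between libraries, a limit was taken over all genes in the expression range of the lower gene. It was the 95th percentile of the size of the log2 difference between the libraries. That limit was 0.35 for genes of 10 to 100 TPM, 0.78 for 1 to 10 TPM, 1.957 for 0.1 to 1 TPM and 2.32 below that. A pair was called ordered when its mean ratio passed the limit with the same sign in both libraries, and Nrp1 over Nrp2 did so. The limit does not cover errors particular to a gene, such as those of its length or transcript models. Plxnb2 over Plxnb1, for instance, had a mean log2 ratio of 2.09 in the first quantification and 1.39 in the second.

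Nrp2 transcripts showed the known choice between an a and a b form, whose coding sequences end differently. The b form, with its own last exon, held 21.1% of the TPM of transcripts with an annotated end in replicate 1 and 23.3% in replicate 2 of the first quantification, and 21.8% and 24.0% of the second. The b form was the minor one in all 4 tables, with shares that lay close together. The last coding segment, particular to each form, has 302 bases in the a form and 278 in the b form before the stop codon. Only the ends of these segments are shown, as the last 60 bases of each open reading frame with the stop codon in capitals (a form chr1:62815578-62815637, b form chr1:62795930-62795989, mm10, plus strand).
Nrp2 b end: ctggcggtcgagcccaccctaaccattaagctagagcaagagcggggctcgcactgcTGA
Nrp2 a end: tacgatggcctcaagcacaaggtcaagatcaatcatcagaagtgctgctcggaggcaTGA

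Before the ends, Nrp2 also has a 51-base cassette exon (chr1:62812534-62812584) and a 15-base extension of an earlier exon (chr1:62786302-62786316), both a multiple of 3 long and so in frame. The cassette was in 34.8% of a-form TPM in replicate 1 and 26.4% in replicate 2, and in 37.4% and 28.8% by the second quantification. The extension was the minor choice in each table, at 15.04% in replicate 1 and 6.52% in replicate 2, and at 16.5% and 5.47% by the second quantification. The cassette and the extension add 17 and 5 codons at the same point of the coding sequence, as the shared flanks show. In the sequences the added bases are in capitals between 15 bases of the neighbouring exons.
Nrp2 cassette: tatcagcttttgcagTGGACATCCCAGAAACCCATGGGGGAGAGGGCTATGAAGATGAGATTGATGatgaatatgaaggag
Nrp2 extension: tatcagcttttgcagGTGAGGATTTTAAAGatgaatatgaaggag

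Plexins were led by Plxnd1, the receptor of Sema3e on endothelial cells (ENSMUSG00000030123.15, chromosome 6, 115954811 to 115995005, minus strand), at 92.0 TPM in replicate 1 and 91.9 in replicate 2. Its usual ligand Sema3e was not expressed by the rule above, at 0.15 and 0.14 TPM. Plxnb2 (chromosome 15, 89155549 to 89180788, minus strand), a receptor of Sema4c, followed at 60.9 and 63.9 TPM. Plxnd1 exceeded Plxna1 by log2 ratios of 2.38 and 2.21.

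Class A plexins, the usual partners of neuropilins, were led by Plxna1 (17.6 TPM in replicate 1 and 19.8 in replicate 2). Plxna4 had 15.2 and 13.2 TPM and Plxna2 11.0 and 11.2. The order of Plxna2 and Plxna4 passed the limit only just: the mean log2 ratio Plxna2/Plxna4 was -0.35, and it was -0.12, short of the limit, in the second quantification and -0.24, also short, in replicate 2 alone. Plxna3 was the lowest of the class, at 1.59 and 1.80 TPM, 11.1-fold under Plxna1. Over protein_coding transcripts alone Plxna3 had 0.91 TPM in replicate 1 and 0.69 in replicate 2. There the mean log2 ratio of Plxna1 over Plxna3 was 4.42.

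In class B, Plxnb2 exceeded the Sema4d receptor Plxnb1 (13.7 TPM in replicate 1 and 15.6 in replicate 2) 4.26-fold. Plxnb3 was under 1 TPM in both, at 0.24 and 0.46. Plxnc1, the sole class C plexin and a receptor of Sema7a, had 3.04 and 2.80 TPM. Down the list of 9 plexins, 7 of 8 neighbours were separated by more than the limit, Plxnb1 and Plxna4 being the pair that was not. Of the 7, Plxna1 over Plxnb1 (0.352 against 0.349) and Plxnc1 over Plxna3 (0.786 against 0.780) passed it narrowly.

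Semaphorins were many and of middling level, with 15 of 20 expressed and none above 24.5 TPM. The secreted class 3 summed to 41.6 TPM in replicate 1 and 42.8 in replicate 2 over 7 genes. Sema3c, known for its part in the outflow tract, led the class at 9.68 TPM in replicate 1 and 11.8 in replicate 2. Sema3f, a ligand of Nrp2, had 9.26 and 8.66 TPM, and Sema3d 7.66 and 7.13. Sema3a, which patterns cardiac sympathetic nerves, was 3.59 and 3.11 TPM, and Sema3c exceeded it 3.20-fold and Sema3d 2.21-fold.

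The class 3 genes Sema3d, Sema3a, Sema3e and Sema3c lie in that order on chromosome 5, the first 3 with gaps of 536 and 423 kb between them. Their levels did not follow their places: Sema3e, the third, was the lowest of the class, at 0.15 TPM in replicate 1 and 0.14 in replicate 2. Sema3f exceeded it by a mean log2 ratio of 5.95. Sema3b, which lies 72.3 kb from Sema3f on chromosome 9, had 7.20 and 7.39 TPM, and Sema3g 4.08 and 4.48. Their ratio, 0.77, missed the limit of 0.78, so Sema3b and Sema3g were not separated, though in replicate 1 alone the ratio of 0.82 passed it.

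In the transmembrane class 4, Sema4d, the ligand of Plxnb1 (chromosome 13, 51685529 to 51793747, minus strand), was the highest of all semaphorins at 24.3 TPM in replicate 1 and 24.5 in replicate 2. Sema4c had 13.8 and 11.1 TPM, 1.97-fold under Sema4d, and Sema4b had 6.32 and 6.86. Sema4a (0.77 and 0.88 TPM) and Sema4g (0.55 and 0.56) stayed under 1 TPM. In the second quantification Sema4a passed the rule, at 2.31 TPM in replicate 1 and 2.44 in replicate 2. Sema4f, the lowest, had 6 counts in replicate 1 and 0 in replicate 2, where up to 3 counts, 0.0923 CPM, are allowed by a count of 0.

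Sema4d owed much of its level to a short transcript. Sema4d-204, a model of 1249 nt classed as protein_coding, had 12.4 TPM in replicate 1 and 12.01 in replicate 2, against 7.06 and 6.87 for Sema4d-201 of 4482 nt. It held 51.0% and 49.1% of the gene's TPM in the first quantification and 42.3% and 41.8% in the second.

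Sema5a, which carries thrombospondin repeats, had 13.6 TPM in replicate 1 and 14.1 in replicate 2, and Sema5b only 0.93 and 1.09, just short of the rule in replicate 1. The ratio was 13.8-fold. In class 6, Sema6d, a ligand of Plxna1 known from heart development, was the second semaphorin at 20.6 and 21.7 TPM. Sema6a followed at 11.4 and 13.2, and Sema6c (3.58 and 4.46) and Sema6b (3.20 and 3.40) were not separated. Over protein_coding transcripts alone Sema6c was the lower of the pair, by a mean log2 ratio of -1.02 that passed the limit. Sema7a, the semaphorin anchored by a lipid and a ligand of Plxnc1, had 11.5 and 13.3 TPM, 4.25-fold over Plxnc1. Only 2 of 18 evaluated neighbours in the list of 20 semaphorins were separated, Sema6d over Sema5a and Sema6b over Sema5b.

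Sema6d is annotated with 8 coding transcripts, and 2 cassette exons (chr2:124660705-124660761 and chr2:124662204-124662371, mm10, plus strand) tell several of them apart. The 57-base exon was in 52.4% of coding TPM in replicate 1 and 47.5% in replicate 2, and in 40.0% and 38.8% by the second quantification. The 168-base exon in its full length was in 57.3% and 57.2%, and in 47.9% and 52.2% by the second. Forms with and without each exon were present in every table. Both exons are in frame, and they are shown in capitals with 15 flanking bases from a transcript that holds both, so that the flanks of each overlap the other.
Sema6d first cassette: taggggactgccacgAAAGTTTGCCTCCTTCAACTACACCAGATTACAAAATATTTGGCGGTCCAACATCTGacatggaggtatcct
Sema6d second cassette: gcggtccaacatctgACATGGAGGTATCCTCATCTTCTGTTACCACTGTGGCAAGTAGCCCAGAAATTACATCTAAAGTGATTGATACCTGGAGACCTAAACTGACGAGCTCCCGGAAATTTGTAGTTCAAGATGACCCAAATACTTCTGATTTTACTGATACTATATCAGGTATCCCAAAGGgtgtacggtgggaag

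Sema6b has 2 transcripts that start at separate sites, each matched by a RefSeq start. Sema6b-201, from the upstream site, had 1.82 TPM in replicate 1 and 2.08 in replicate 2, and Sema6b-202, from the downstream site, had 1.38 and 1.32. The upstream site thus held 56.9% and 61.2% of the gene, and 58.1% and 66.6% in the second quantification. The 250 bases before each start are shown since both were in use and differ in base composition, with each CG dinucleotide in capitals (RefSeq, GRCm38.p6, minus strand, chr17:56140344-56140593 and chr17:56133853-56134102). The upstream window has 20 CG dinucleotides, 0.758 of the number expected from its base composition, and the downstream one has 5, a ratio of 0.243.
Sema6b upstream start: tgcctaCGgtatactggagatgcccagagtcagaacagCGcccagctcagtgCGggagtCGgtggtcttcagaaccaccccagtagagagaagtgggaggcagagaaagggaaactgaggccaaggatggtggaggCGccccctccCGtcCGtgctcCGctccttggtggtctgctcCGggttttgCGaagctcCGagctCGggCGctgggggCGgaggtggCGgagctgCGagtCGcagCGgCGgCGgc
Sema6b downstream start: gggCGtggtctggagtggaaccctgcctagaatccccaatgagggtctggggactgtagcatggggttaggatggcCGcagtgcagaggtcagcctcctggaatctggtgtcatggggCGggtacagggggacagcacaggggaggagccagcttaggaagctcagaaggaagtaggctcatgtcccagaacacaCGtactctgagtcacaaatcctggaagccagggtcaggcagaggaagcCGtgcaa

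Among the SLITs, Slit3 (chromosome 11, 35121224 to 35708507, plus strand) had 13.9 TPM in replicate 1 and 9.94 in replicate 2, and Slit2 (chromosome 5, 47983138 to 48307733, plus strand) 8.49 and 7.94. Slit3 was higher in both hearts, but its mean log2 ratio of 0.52 to Slit2 did not pass the limit of 0.78. In the second quantification Slit2 averaged 11.0 TPM, in the range with a lower limit, and there a ratio of 0.46 passed. On protein_coding transcripts alone the ratio was 1.21 and passed as well. Slit1, a SLIT of the nervous system, had 2 counts in each library, 0.04 TPM, and Slit2 exceeded it by a mean log2 ratio of 7.68.

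Slit2 is annotated with 23 transcripts, and no single one carried it: the leader of the second quantification held 21.01% of the TPM. A 24-base cassette exon (chr5:48220967-48220990, mm10, plus strand) separates Slit2-202, which has it, from Slit2-216. Its share of the TPM of the 4 coding transcripts that cover this place was 18.8% in replicate 1 and 35.6% in replicate 2 of the first quantification, and 32.2% and 78.4% of the second. The shares differed more between hearts and quantifications than those of Nrp2 and Sema6d, so whether the exon is mostly kept or skipped could not be read from these tables. It is shown in capitals with 15 flanking bases.
Slit2 cassette: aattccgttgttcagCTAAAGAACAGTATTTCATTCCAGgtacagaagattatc

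The ROBO family was led by Robo4, the ROBO of endothelial cells (ENSMUSG00000032125.20, chromosome 9, 37401897 to 37415115, plus strand), at 14.7 TPM in replicate 1 and 17.1 in replicate 2. Robo1 had 4.68 and 4.80 TPM and Robo2 2.07 and 3.34. The Robo2 counts, 216 and 225, lay closer together than its TPM, whose deposited effective lengths were 3720 and 2747 nt. Robo4 exceeded Robo1 3.34-fold, and Robo1 exceeded Robo2 1.80-fold by a ratio that passed the limit in replicate 1 alone and not in replicate 2 alone. Robo3, a receptor of commissural axons, lies 0.553 kb past the end of Robo4 on the other strand (37415669 to 37433246) and had 3 counts in replicate 1 and 2 in replicate 2. A pair of adjacent ROBO genes was thus at 15.9 ± 1.64 and 0.08 TPM on average.

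Netrins were led by Ntn1, the netrin best known from the spinal cord floor plate (chromosome 11, 68209364 to 68400823, minus strand), at 37.8 TPM in replicate 1 and 42.9 in replicate 2. Ntn4, a netrin of basement membranes that binds laminin, had 18.3 and 22.1 TPM, 2.00-fold less. Ntn3 was at the threshold, with 1.00 and 0.85 TPM, and Ntn5 had 1 and 4 counts. All 3 neighbours among the netrins were separated.

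Over the 24 pairs chosen by function or likeness, 23 had a level above 0 in both libraries, and 20 were ordered. The exceptions were Slit3 with Slit2, Sema3b with Sema3g and Sema6c with Sema6b. Across neighbours by rank within each family, 17 of 35 evaluated pairs were separated, most of them outside the semaphorins.

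**Figure D2:**
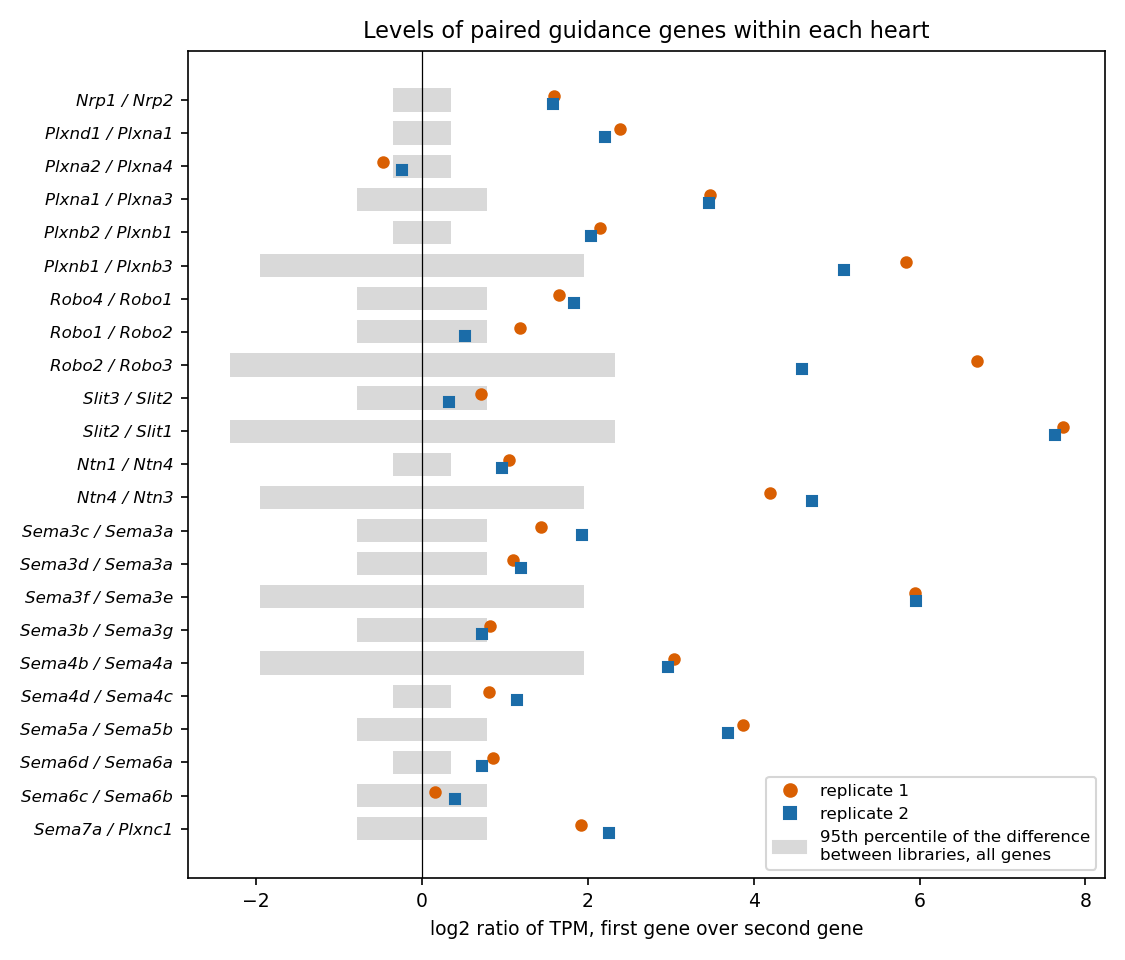
log2 ratio of TPM of the first over the second gene of 23 pairs (horizontal) in replicate 1 (circles) and replicate 2 (squares), with the 95th percentile of the between-library log2 difference over all genes in the lower gene's expression range as a grey band. Of the pairs, 20 have a mean ratio outside the band, and Plxna2/Plxna4 is the single one of these below 0.

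Annotated transcripts divided the level of most genes. Over the 32 expressed members, the leading transcript of the second quantification held a median of 60.03% of the gene's TPM, from 21.01% to 100%, and more than 50% in 17 genes. It was the same transcript as in the first quantification in 27 of 32. The exceptions were Robo4, Sema3a, Sema4c, Sema6d and Slit2. In the first quantification all 32 leaders were of the class protein_coding, and in the second 30 were.

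The other 2 leaders were not of that class. Robo4-204, classed as subject to nonsense-mediated decay, had 6.06 TPM in replicate 1 and 9.04 in replicate 2 of the second quantification, and 2.00 and 3.20 of the first. Sema4c-206, a retained intron of 618 nt, had 8.42 and 6.70 TPM in the second quantification, and 1.26 and 0.54 in the first.

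Short models of noncoding classes carried part of the highest genes as well. Plxnb2-205, a processed transcript of 834 nt, had 14.7 TPM in replicate 1 and 14.5 in replicate 2 of the first quantification and 0 in the second. Plxnd1-204, a retained intron of 442 nt, had 20.5 and 20.1 TPM in the first and 2.82 and 0 in the second. Counted over protein_coding transcripts alone, Plxnd1 stood at 60.03 ± 1.80 TPM (SD, n = 2) and Nrp1 at 59.8 ± 3.10, a difference smaller than either SD, and Plxnb2 at 42.0 ± 3.30. Sema6c was the most affected expressed member on average, with 39.8% and 41.6% of its TPM on protein_coding transcripts. Plxna3 had 57.2% in replicate 1 and 38.5% in replicate 2. On that scale 31 genes were expressed in place of 32, Plxna3 falling short.

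**Figure D3:**
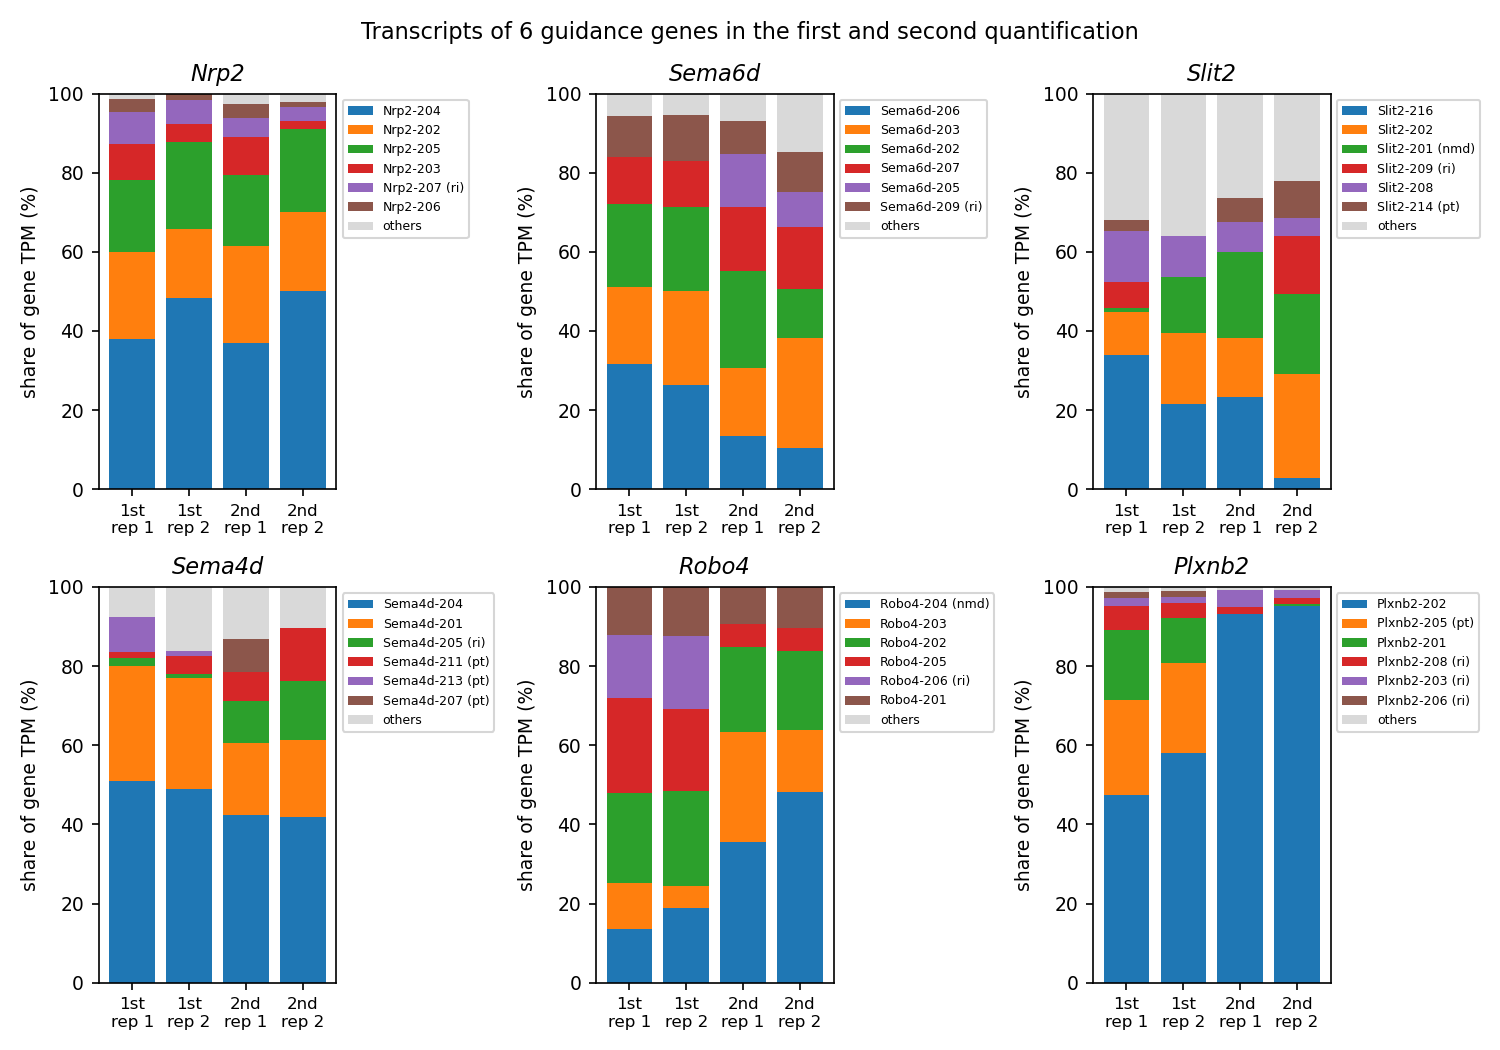
Share of each gene's TPM (vertical, in percent) held by its 6 leading annotated transcripts, for 6 guidance genes, in replicates 1 and 2 of the first (1st) and second (2nd) quantification. The marks ri, nmd and pt stand for retained intron, nonsense-mediated decay and processed transcript, and the Nrp2 bars keep the same leader in all 4 columns while those of Robo4, Slit2 and Plxnb2 differ more between quantifications.

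The guidance genes are long. The longest protein_coding transcript had a median of 5582 nt over the 42 genes, against 2680 nt over all 21901, and 41 of 42 lay above the median of all. Gene spans ran from 5684 bp (Ntn3) to 737790 bp (Robo1), with a median of 76417 bp against 17336 bp. Of the 42 genes, 35 had an entry in the RefSeq promoter table (GRCm38.p6), with 48 start sites. The 250 bases before a start had a median GC content of 63.8%, against 52.4% over all 32851 windows, and were rich in CG dinucleotides (GC over 50% and a CG ratio over 0.6) in 39.6%, against 30.8%. The GC box GGGCGG, searched on both strands, was in 66.7% of the windows, against 32.7% of all, and TATAAA, on both strands, in 2.08% against 12.4%. Robo4 (CG ratio 0.131) was among the windows poor in CG. These are descriptions of the windows, which include several starts of 1 gene.

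Other genes of these pathways came from 7 lists, and 58 of the 77 found in the annotation were expressed by the same rule. Cofactors and effectors were expressed nearly throughout, netrin receptors and the remaining ligands in part. Among netrin receptors 3 of 8 did: Mcam (90.3 TPM in replicate 1 and 96.4 in replicate 2), which has been described as a netrin receptor, neogenin Neo1 (32.1 and 34.4) and the endothelial receptor Unc5b (19.2 and 22.3). Dcc, the netrin receptor of axons, was at 0.07 and 0.07 TPM. Ntn1 was thus expressed together with Neo1 and Unc5b but without Dcc by that rule.

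Of the other ligands of these receptors, 3 of 9 found were expressed, namely Rgma (16.0 TPM in replicate 1 and 17.0 in replicate 2), Rgmb (8.18 and 10.6) and Flrt2 (8.41 and 7.17). All 15 cofactors and effectors of SLIT and ROBO signalling were, led by dystroglycan Dag1 (136 and 142), the actin regulator Enah (87.1 and 90.6) and glypican Gpc1 (59.1 and 60.3). Of the plexin effectors, 22 of 23 were, led by Rhoa (154 and 151), Rac1 (150 and 154) and Mical2 (124 and 132), with Rnd1 short of the rule (0.65 and 0.50).

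Among other semaphorin receptors and coreceptors 8 of 13 were expressed, led by the Sema7a receptor Itgb1 (286 TPM in replicate 1 and 298 in replicate 2), Kdr (50.8 and 51.9) and Itga1 (38.5 and 40.2), while L1cam and Nrcam, coreceptors of axons, were under 1 TPM. Of 5 CRMP proteins, which carry the Sema3a signal to microtubules, 3 were, with Dpysl3 at 108 and 114, Dpysl2 at 49.3 and 51.0 and Crmp1 at 4.96 and 5.42. All 4 furin-like convertases, which cleave class 3 semaphorins, were, led by Furin (46.2 and 47.9), Pcsk6 (14.5 and 19.8) and Pcsk7 (9.11 and 11.7).

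**Figure D4:**
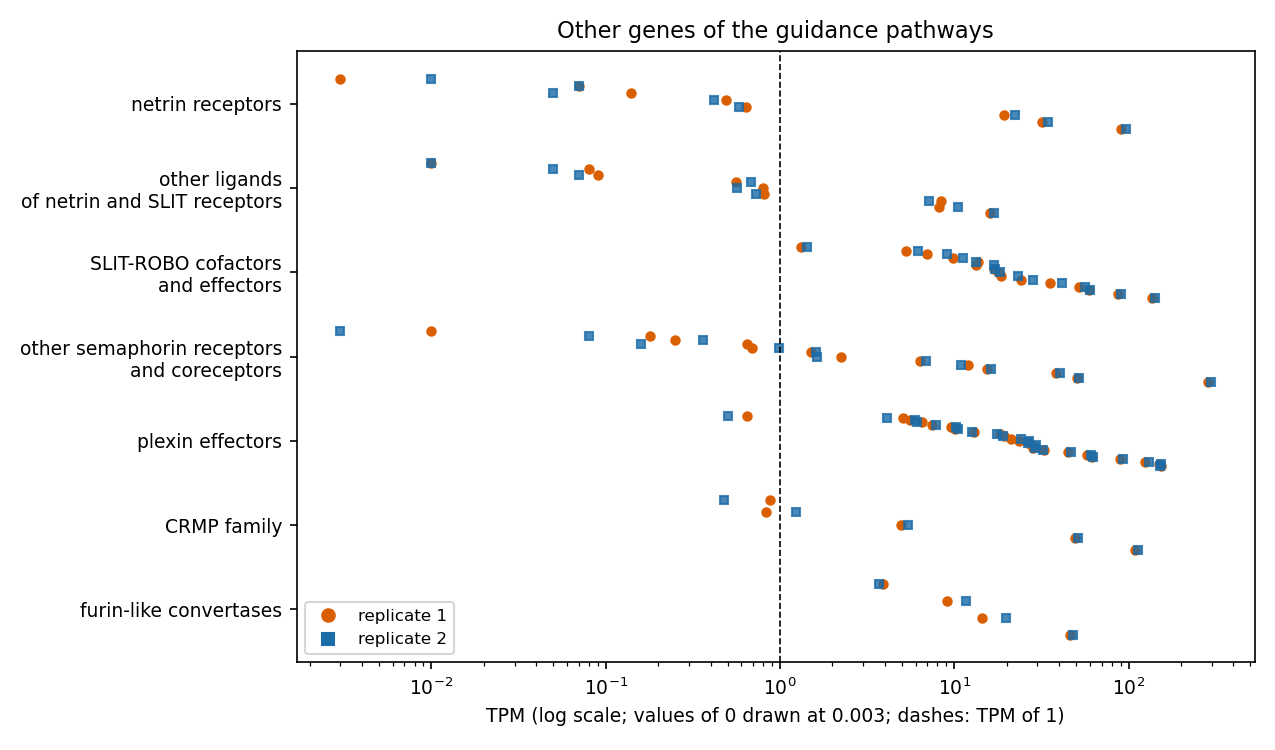
Level in TPM (horizontal, log scale) of 77 other genes of the guidance pathways in replicate 1 (circles) and replicate 2 (squares), by list, with dashes at a TPM of 1. All 15 SLIT-ROBO cofactors and effectors lie right of the line, while 5 of 8 netrin receptors lie left of it in both hearts.

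No tested guidance gene differed 2-fold between the hearts, and few genes of any kind did. Counts were scaled by TMM, and ratios are replicate 1 over replicate 2 with an exact 95% Clopper-Pearson interval, which covers counting error only. A gene was tested when its mean reached 1 TPM and its summed count 20, and called at 2-fold or more with an interval that excludes equality. None of the 33 members tested was called, against 0.868% of all 13598 genes that passed the filter. At so small a share, a list of 33 with none called does not set the guidance genes apart. A 1.5-fold rule called 1 member, Sema3a, against 2.28% of all genes. The median log2 ratio was -0.0008 over the members and 0.0033 over all genes.

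Among members with a summed count of at least 20, Sema3a had the largest ratio, with 433 counts in replicate 1 and 255 in replicate 2, a log2 ratio of 0.65 (interval 0.43 to 0.88). It was the sole tested member beyond the 95th percentile of all genes, 0.45. Its TPM, which divides by the effective length (4303 nt in replicate 1 and 3337 in replicate 2), was 3.59 and 3.11. In the annotated transcripts, Sema3a-202 had 1.18 and 0.41 TPM, and Sema3a-205, a model of 312 nt, 0.16 and 1.07. The log2 ratio of Sema3a on TPM was 0.21 in the first quantification. In the second it was 0.59, from 4.78 TPM in replicate 1 and 3.16 in replicate 2.

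Slit3 followed, with 1695 counts in replicate 1 and 1159 in replicate 2, a log2 ratio of 0.44 (0.33 to 0.55). Sema4a, below the TPM filter, had 57 and 40 counts and a ratio of 0.40 (-0.21 to 1.02). On the other side Ntn4 had 1650 and 1832 counts, a log2 ratio of -0.26 (-0.36 to -0.16). Plxnb3, below the filter, had 37 and 40 counts (-0.22, interval -0.91 to 0.46), and Sema3c 1202 and 1278 (-0.20, interval -0.31 to -0.08).

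By the interval alone, 12 of the 33 (36.4%) excluded equality, 6 in each direction, against 23.7% of all genes. Higher in replicate 1 were Sema3a, Slit3, Plxnc1, Plxna4, Sema3d and Sema5a, and lower were Ntn4, Sema3c, Ntn1, Nrp2, Plxnb2 and Nrp1. The split by direction depends on the scaling: with spike-in totals, which moved the median of all genes to -0.13, 5 of the 33 ratios were above 0 and 28 below, and 11 changed sign. On that scale Sema5a was -0.04 and Sema3d 0.02. An interval of counting error does not cover the spread between animals. It also narrows as counts rise, and the 23.7% of all genes was not matched for count. Plxnb2, for instance, excluded equality at a log2 ratio of -0.06 with 14803 summed counts. The median size of the log2 ratio was 0.088 over the members and 0.086 over all genes.

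Marker lists of cell types and tissues differed between the libraries to unlike degrees. The median log2 ratio was 6.34 over the 5 erythroid markers tested, 3.27 over 6 of skeletal muscle, 0.79 over 6 of the epicardium and mesothelium, 0.49 over 4 of the endocardium, and -0.18 over 7 of fibroblasts. It was -0.27 over 7 markers of macrophages and myeloid cells, all 7 lower in replicate 1, and 0.17 over 5 of lymphatic endothelium. Over 7 markers of smooth muscle and pericytes it was -0.13, with 6 lower in replicate 1. The other, Acta2, was the most abundant of these and had a ratio of 0.34, so their summed TPM was higher in replicate 1 (744 and 681). The endocardial markers summed to 54.0 and 38.7 TPM and the fibroblast markers to 1500 and 1821. Endothelial markers had a median ratio of 0.06. Of the receptors named above as endothelial, Plxnd1 was at 0.02, Robo4 at -0.09 and Unc5b at -0.11. The part of any of these cells in the ratios of the guidance genes was not tested.

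**Figure D5:**
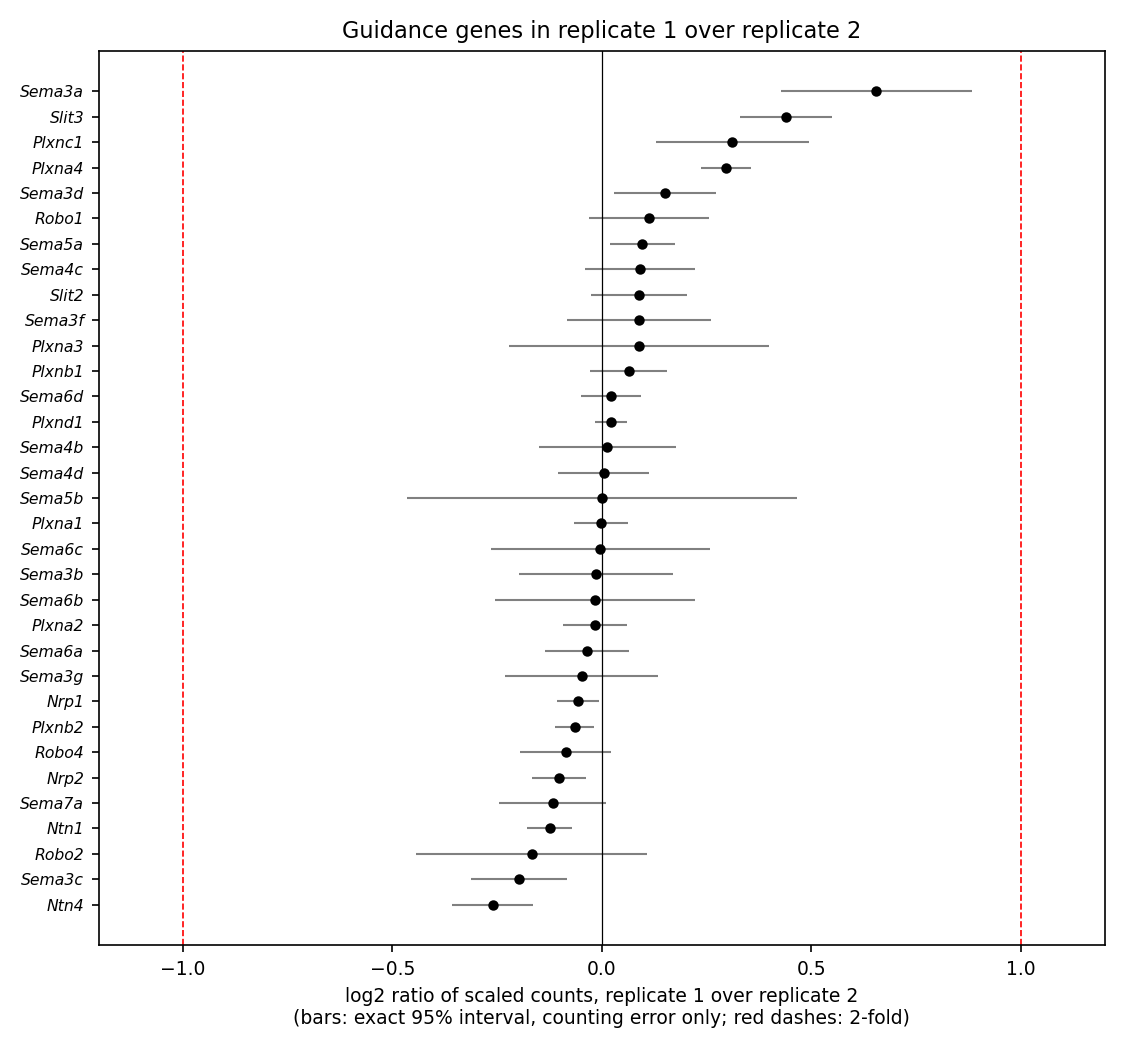
log2 ratio of scaled counts, replicate 1 over replicate 2 (horizontal), for the 33 tested guidance genes, with exact 95% intervals of counting error as bars and 2-fold changes as red dashes. All 33 lie between the dashes, with Sema3a and Slit3 farthest to the right and Ntn4 farthest to the left.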

How the data were processed

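The 2 libraries of 1 group were named as replicates by their labels. For each, the authors deposited a gene table of expected counts (estimated counts) and TPM, in an RSEM layout, with a transcript table of the same layout and a second transcript table in a kallisto layout. Per the labels and accompanying notes the genome was mm10 and the annotation M21. Which programs made these tables is not given in the sources used here. First quantification means the RSEM-layout tables, and the second was summed per gene for gene levels. Each transcript's percentage of its gene was also deposited by the authors, and the shares here were recomputed from TPM.

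The members follow a pattern on symbols, and they, the pairs, the pathway and marker lists and the rules were chosen with earlier results of these data known. Named were all members of the small families, the 3 highest and the lowest of each semaphorin and plexin class, the members of described pairs, the 3 largest ratios between the hearts in each direction among members with a summed count of at least 20, and up to 3 pathway genes a list. Dcc, Rnd1, L1cam, Nrcam and single transcripts were named after their values were seen. Of the pathway symbols 1, Rgmc, was not found.

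Expected counts were rounded to whole numbers and scaled by TMM (edgeR 4.0.16, R 4.3.3) with spike-ins left out and a prior count of 0.5. A count of 0 allows up to 3 counts, 0.0829 CPM (replicate 1) or 0.0923 CPM (replicate 2), and like the intervals this allows for counting error alone. On data simulated with counting error alone, the 2-fold rule called 100% of genes at a true fold of 4, 99% at 0.4 and 0.0747% at 1, over 13594 genes. Folds other than 1 were set only in genes well above the filter. The simulation holds no spread between animals, so these are not error rates for the 2 hearts. Posterior standard deviations were 0 for 40 of 42 members, and at most 0.434% of the count for the expressed ones. Coordinates are 1-based from GENCODE M21, and spliced sequences from its transcripts. Python 3.11.15 with numpy 2.4.6, pandas 2.3.3, scipy 1.17.1 and matplotlib 3.10.9 was used. Alternatives are DESeq2 1.42.0 size factors, library and spike-in totals, other filters, prior counts, folds and percentiles, posterior means, CPM, the second quantification and each library alone. Sums over protein_coding transcripts and ratios of TPM were chosen after seeing the data. Alleles of the parental strains were not analysed here. The result of 1 marker list is not reported here.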

Additional observations from a re-analysis of the deposited data

How the results depend on the processing

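The count of expressed guidance genes, 32 in the tables as deposited, stayed within 1.5 times under every alternative run. So did the 20 ordered pairs and the 58 expressed pathway genes. That limit is wide: the expressed guidance genes ran from 24 at a TPM of at least 5 to 37 at a CPM of at least 1. In the second quantification 35 were expressed, with Sema4a, Ntn3 and Sema5b added. Family sums moved with the scale. In the second quantification they were 231 TPM for plexins, 214 for semaphorins, 121 for neuropilins, 94.7 for netrins, 27.8 for ROBOs and 26.5 for SLITs. Rescaled over protein-coding genes they were 408, 290, 179, 115, 43.8 and 37.7 in that order. Over protein_coding transcripts plexins held 158, semaphorins 126, neuropilins 82.0, ROBOs 16.9 and SLITs 14.7. These scales differ by construction in which RNAs enter the total. The leading transcript's median share was 57.4% in the first quantification, and from 58.3% to 59.0% without one replicate. Of the members called between the hearts, none in the deposited tables at 2-fold, 1 was called at 1.5-fold (Sema3a) and 1 with no filter (Sema4f). The median log2 ratio of the members was -0.13 with spike-in totals, where that of all genes was also -0.13. Of the alternative values of single pairs, 167 kept their call, 9 lost it, 5 gained it, and Sema6c/Sema6b reversed to -1.02 over protein_coding transcripts, a cause that was not tested. The order of Plxna2 and Plxna4 was lost in the second quantification (-0.12), in replicate 2 alone (-0.24) and against the 99th percentile. Over protein_coding transcripts the ratio was larger in size (-0.54). It fell short there because Plxna2 averaged 9.34 TPM, in the range with the higher limit of 0.78. No paired analysis was possible because the study has a single group. Depth limits Sema4f, Robo3, Ntn5 and Slit1, with 6 or fewer counts a library.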
